A study of Caenorhabditis elegans with 2 samples.

Results

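The enzymes that activate fatty acids and break them down by beta-oxidation were followed in whole wild-type nematodes of the laboratory strain N2. The members are all genes whose symbol is acs-, acdh-, acox-, ech-, kat-, maoc- or cpt- with a number, plus daf-22, read by a probe set whose platform annotation names that gene alone. acdh-1 was left out by the rule. This gave 58 genes read by 69 probe sets, of 17118 genes in the table. RefSeq lists 61 genes under the same names without acdh-1, and the other 3 (acdh-10, acox-1.3 and acox-1.4) had no probe set naming them alone. One array came from synchronized worms exposed in the dark, in a liquid worm medium, to 500 µg/ml of anatase, a crystal form of titanium dioxide given as nanoparticles. The other array came from worms labelled as exposed to none. Both carry the wild-type N2 background and come from strains maintained on the same bacteria, per the labels, while their age and the time they were exposed were not stated in any source at hand.

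Fatty acids freed from stored fat are first joined to coenzyme A by acyl-CoA synthetases, the acs genes. Carnitine palmitoyltransferases, the cpt genes, carry long acyl chains into mitochondria. There an acyl-CoA dehydrogenase, an enoyl-CoA hydratase, a hydroxyacyl-CoA dehydrogenase and a thiolase act in turn and release acetyl-CoA. Peroxisomes run a parallel cycle that starts with an acyl-CoA oxidase, and in C. elegans this cycle also trims the side chains of ascarosides, the small signalling molecules that worms secrete, among them the dauer pheromone.

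Most of these enzymes gave nearly equal signal on both arrays, and no member differed by as much as 2-fold on the scale used here. On the deposited values alone cpt-3 did, at 121.4 and 58.9, and it also passed 2-fold with a pseudocount of 1. Differences are exposed minus control on the scale log2(intensity + 16), averaged over the probe sets of a gene. This scale understates the change of dim genes, and on it the members ran from −0.88 for cpt-3 to 0.52 for acdh-4. All 58 members were bright enough to be compared. Of them, 53 lay within 0.5 log2 units of equal signal, which is 91.4% of the members, against 81.2% of the 13605 genes compared. The median was −0.05 for the members and −0.02 for all genes compared, and both turned positive, to 0.0042 and 0.03, with each array centred on its median. Of the members, 32 lay lower (55.2%) and 26 higher, against 53.2% of all genes compared that lay lower. Because each group has a single array, no replicate error is known and nothing was tested. The only technical spread comes from genes read by exactly 2 probe sets, where the SD of 1 probe set's difference grew as signal fell. Both probe sets lie on the same arrays, so this SD leaves out differences between arrays and between worms. With the genes compared cut into 4 equal groups by brightness, it was 0.18 log2 units in the brightest group and 0.24, 0.39 and 0.51 in the groups below. The brightest group held 22 members, and the groups below held 18, 12 and 6. From the brightest group down, 95.5%, 88.9%, 83.3% and 100% of the members lay within 0.5 log2 units, against 95.5%, 91.7%, 83.1% and 54.4% of the genes in the same groups.

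At a threshold of 1.5-fold, 4 members lay lower, which is 6.90% of them against 9.58% of all genes compared. These were cpt-3, acdh-6, acs-1 and acs-7. No member lay 1.5-fold higher, against 4.69% of all genes compared. At 2-fold the background was 3.07% lower and 1.66% higher. These backgrounds are carried by dim genes, since 26.3% of the genes in the dimmest brightness group lay at least 1.5-fold lower, and that group held 6 members. The 4 lower members came from the middle groups. In the dimmer of these, 2 of 12 members (16.7%) lay at least 1.5-fold lower against 7.06% of its genes, and in the brighter one 2 of 18 (11.1%) against 3.2%. In the dimmest group 0 of 6 members lay that low against 26.3% of its genes, and in the brightest 0 of 22 against 1.71%. The higher shares are thus those of the groups in which the 4 fell. The median probe set read similarly, at 123.1 without anatase and 117.8 with it, but the dim end was lower with it. The 25th percentile was 31.1 without anatase and 25.2 with it, and 15.8% and 18.0% of probe sets read below 16. From the dimmest brightness group up, the median difference of all genes was −0.19, −0.07, 0.02 and 0.01.

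**Figure D1:**
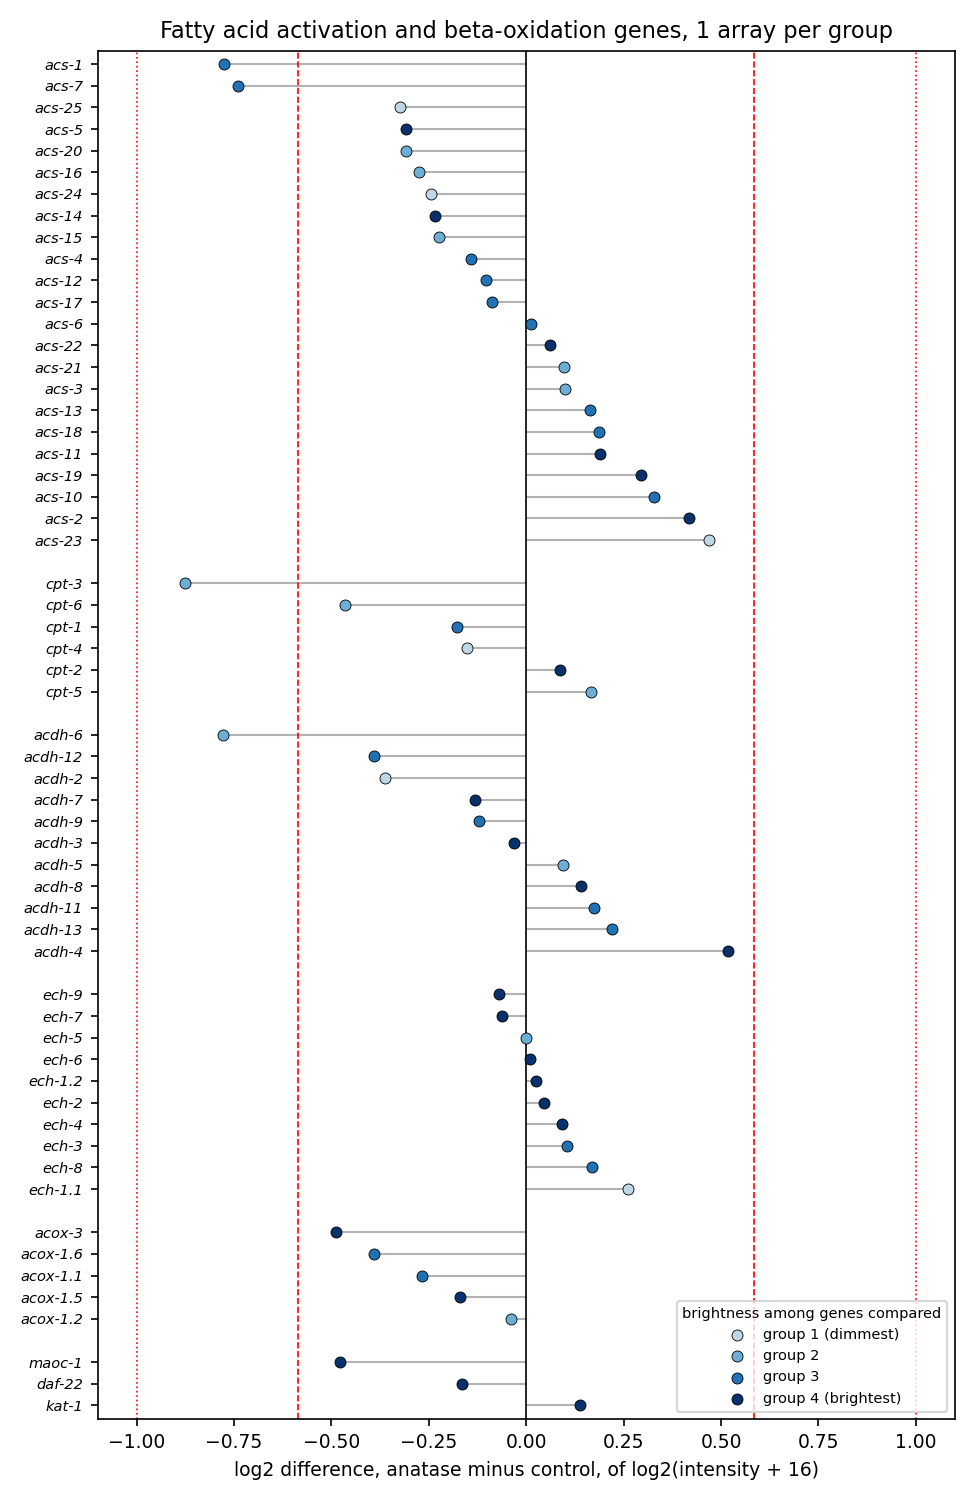
Log2 difference (exposed minus control, log2(intensity + 16)) of each of the 58 members, grouped by gene family and coloured by brightness; dashed lines mark 1.5-fold and dotted lines 2-fold. 4 members lie beyond the lower dashed line, none beyond the upper one, and all 5 acox genes lie left of 0, acox-1.2 so little that median centring moved it to 0.02.

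**Figure D2:**
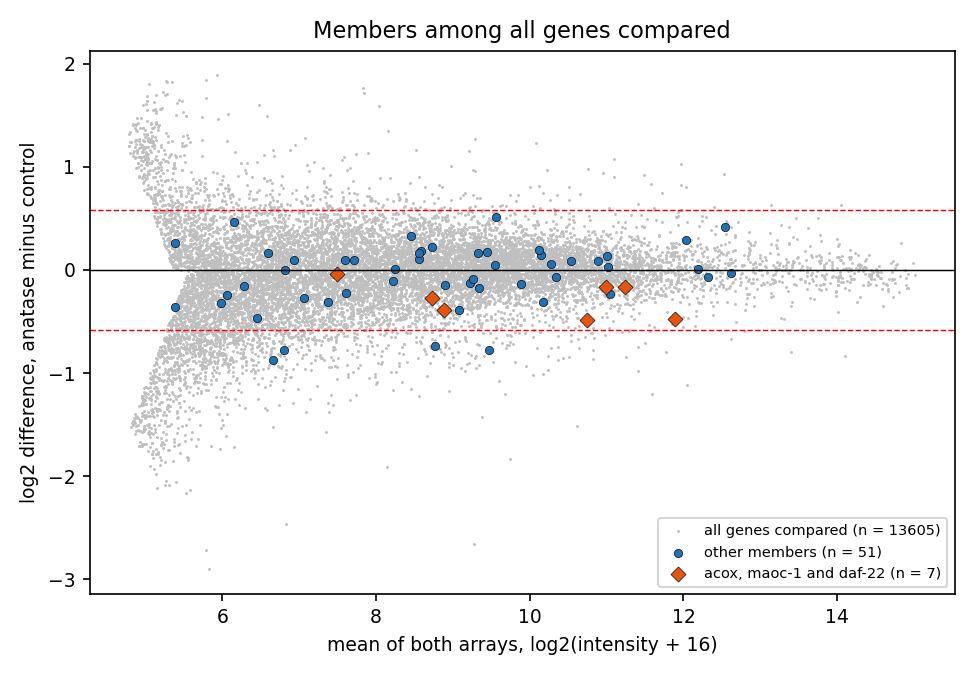
Difference of each gene compared against its mean log2 level over both arrays, with the members drawn over all 13605 genes and dashed lines at 1.5-fold. The spread of all genes widens toward the dim end, and the members lie within it.

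Fatty acid activation was split in direction. Of 23 acyl-CoA synthetase genes, 12 lay lower and 11 higher, with a median of −0.09 that was 0.01 when the brightest probe set stood for each gene, and the family ran from −0.78 to 0.47. The lowest was acs-1, which acts on branched-chain fatty acids made by the worm itself. One of its probe sets went from 1486.7 in the control to 755.5 after exposure, and the other from 553.5 to 361.9. Both probe sets were lower, with differences of −0.96 and −0.59, and their mean of −0.78 is a 1.71-fold difference, lower than that of all but 5.71% of the genes compared. acs-7, which has a part in making modified ascarosides, went from 548.8 to 321.9 on its only probe set, a difference of −0.74. Both differences are larger than the 0.24 SD of 1 probe set at that brightness, which does not cover differences between worms or arrays. In that brightness group, the SD over all genes was 0.30, and 3.2% of them lay at least 1.5-fold lower.

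In the other direction stood acs-2, a mitochondrial synthetase that is switched on by fasting through the nuclear receptor NHR-49. Its probe sets went from 7168.2 to 10410.5 and from 3711.1 to 4569.6. Both were higher, by 0.54 and 0.30, and the mean of 0.42 is a 1.34-fold difference, above 91.0% of the genes compared. The only synthetase with a higher value was the dim acs-23, at 44.5 and 67.7, a difference of 0.47 that lies within the 0.51 SD of 1 probe set at that brightness. acs-19, an acetyl-CoA synthetase, went from 3758.9 to 4613.8, a difference of 0.29 on a single probe set whose type may also bind transcripts of related genes, called a shared probe set from here on.

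The synthetases linked to the cuticle and to lipid uptake differed little or could not be settled. acs-22, which belongs to the fatty acid transport proteins and is needed for the cuticle barrier, read 1196.1 and 1249.2, a difference of 0.06. acs-20, its partner in that role, had 1 probe set going from 326.9 to 200.7 (−0.66) and another from 83.8 to 87.1 (0.05). The mean of −0.31 therefore rests on the shared probe set alone. acs-3, an acyl-CoA synthetase that limits fat uptake, read 102.0 and 110.4, a difference of 0.10. The probe sets of acs-13 also went apart, from 673.2 to 995.5 (0.55) and from 516.6 to 439.2 (−0.23). The remaining 14 synthetases lay between −0.32 (acs-25) and 0.33 (acs-10).

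Mitochondrial entry showed the lowest value of all members in cpt-3, a member of the carnitine acyltransferase family. It went from 121.4 to 58.9 on 1 probe set, a difference of −0.88 or 1.83-fold. At its brightness the SD of 1 probe set was 0.39, and 7.06% of genes lay at least 1.5-fold lower. cpt-1, the transferase of the outer mitochondrial membrane, read 672.0 and 592.6, a difference of −0.18. cpt-2, its partner on the inner membrane, read 1430.1 and 1520.6, a difference of 0.09. The values of both lay within the SD of 1 probe set. cpt-4 gave no usable direction, since its shared probe sets went from 58.5 to 84.2 (0.43) and from 74.7 to 38.7 (−0.73). cpt-6 was at −0.47 and cpt-5 at 0.17. Both lay below the median brightness, as did cpt-3 and cpt-4. Over the 6 genes the median was −0.16, with 4 lower, and it was 0.09 over the 3 genes left without shared probe sets.

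The acyl-CoA dehydrogenases, which take the first oxidation step in mitochondria, had a median of −0.03 over 11 genes, with 6 lower and 5 higher. This median was 0.02 with median centring, 0.03 when only genes at or above the median brightness were kept, and 0.12 over the 4 genes left without shared probe sets. acdh-6 went from 130.6 to 69.4, a difference of −0.78 or 1.72-fold on 1 probe set, in the same brightness group as cpt-3. acdh-12, the counterpart of the mammalian very-long-chain enzyme, read 605.4 and 458.0, a difference of −0.39. At the other end acdh-4 went from 613.7 to 885.4, a difference of 0.52, the largest positive value among the members. acdh-13 read 378.0 and 443.0, a difference of 0.22. acdh-3 had the brightest probe set of the family and read 6347.1 and 6206.3, a difference of −0.03. acdh-11, which restrains the fatty acid desaturase fat-7 by holding its fatty acid signal, was at 0.17. acdh-12, acdh-4, acdh-13 and acdh-3 were each read by a shared probe set only.

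The enoyl-CoA hydratase family had the smallest spread among the 5 families, with an SD of 0.10 across its genes. Its 10 genes lay between −0.07 and 0.26, with 7 higher, 3 lower (ech-5, at −0.0013, turned positive under each of 3 scalings) and a median of 0.04, which was −0.0013 over the 5 genes left without shared probe sets. In all, 9 of the 10 lay within 0.25 log2 units of equal signal, which is 90.0% against 56.6% of all genes compared. In the brightest group, which holds 6 of these genes, the share of all genes was 79.7%, and in the next, which holds 2, it was 65.9%. ech-6, the short-chain hydratase that also serves the breakdown of valine and propionate, read 4656.6 and 4685.5, a difference of 0.01. ech-7, with the brightest probe set of the family, read 5211.9 and 4987.0, a difference of −0.06. ech-1.2, the alpha subunit of the trifunctional protein, was at 0.03. Only ech-1.1, a close relative of ech-1.2, stood outside, and it was dim. Its 3 probe sets read 4.0 and 11.9, 59.1 and 56.3, and 21.3 and 31.7, so its 0.26 comes from low signals. The thiolase kat-1, which closes the mitochondrial cycle and is known from worms that store excess fat without it, read 1944.0 and 2139.6, a difference of 0.14. A probe set naming both kat-1 and T02G5.4 read 3335.7 and 3184.9, a difference of −0.07.

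Peroxisomal oxidation starts with the acyl-CoA oxidases. All 5 acyl-CoA oxidases measured alone were lower, with a median of −0.27, although acox-1.2 turned to 0.02 with each array centred on its median. acox-3 went from 2019.2 to 1435.8, a difference of −0.49, and acox-1.6 from 526.7 to 398.1, a difference of −0.39. acox-1.1, which shortens ascaroside side chains, went from 447.6 to 369.0, a difference of −0.27. acox-1.5 went from 2540.4 to 2257.8 (−0.17) and acox-1.2 from 166.1 to 161.1 (−0.04). The values for acox-1.5 and acox-1.2 are within the SD of 1 probe set, and those for acox-3 and acox-1.6 are larger than it. That of acox-1.1 is only just past the 0.24 SD at its brightness.

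The later steps of the ascaroside cycle in peroxisomes read lower as well. maoc-1, the hydratase of the ascaroside cycle, went from 4476.8 to 3209.5, a difference of −0.48 or 1.39-fold, against an SD of 0.18 for 1 probe set at that brightness. daf-22, the thiolase of the same cycle, went from 2141.4 to 1908.9, a difference of −0.16. The dehydrogenase between them, dhs-28, is no member by name. Its probe sets went from 3570.1 to 3210.8 (−0.15) and from 316.8 to 292.5 (−0.11). The differences of daf-22 and of both dhs-28 probe sets are within the 0.18 SD, and only that of maoc-1 is larger. Together the acox genes, maoc-1 and daf-22 were lower in 7 of 7 (6 with median centring), against 53.2% of all genes compared. Their median was −0.27, and the other 51 members were lower in 25, with a median of 0.01. This grouping was made after the values were seen and was not tested, and none of the 7 reached 1.5-fold. The probe set shared by acox-1.3 and acox-1.4 went the other way, from 346.3 to 354.1, a difference of 0.03. Of the 7 genes, 4 (acox-3, acox-1.6, acox-1.5 and daf-22) were read by a shared probe set only.

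**Figure D3:**
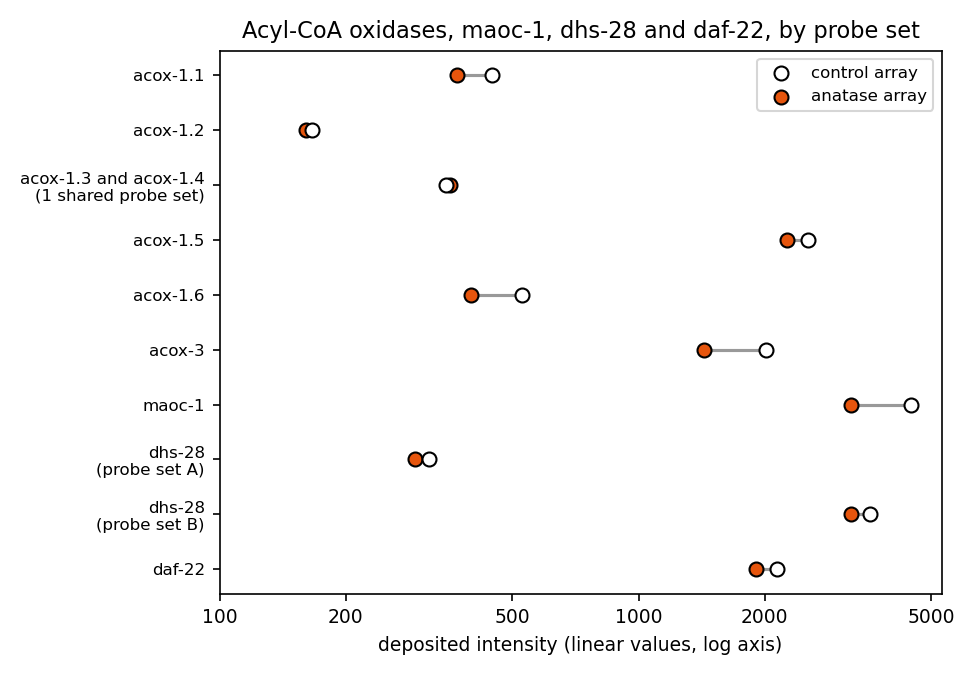
Deposited intensity (linear values on a log axis) of each probe set for the acyl-CoA oxidases, maoc-1, dhs-28 and daf-22 on the control array (open) and the exposed array (filled). The exposed value is the lower in every line but the probe set shared by acox-1.3 and acox-1.4, and the gap is widest for acox-3 and maoc-1.

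Some members lie next to each other along the genome in the RefSeq gene table. acox-1.1 and acox-1.2 stand in 1 run with acox-1.3 and acox-1.4, and their values were −0.27, −0.04 and, for the last 2 together, 0.03. maoc-1 neighbours acdh-12, and both were lower, at −0.48 and −0.39. ech-8 neighbours ech-9, and these were at 0.17 and −0.07, so neighbours did not share a direction in each case.

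How far a value can be read depends on the probe sets. Of 10 members read by more than 1 probe set, all probe sets pointed the same way for 5 (acs-1, acs-2, acs-17, acdh-2 and acdh-7) and in both directions for the other 5 (acs-4, acs-13, acs-20, cpt-4 and ech-1.1). The median gap between the probe sets was 0.37 log2 units over the 9 members with exactly 2, and 0.24 over all such genes. The other 48 members had 1 probe set, and 21 members were read by shared probe sets only. Among these 21 the median was −0.12, and it was −0.02 among the 34 members read by no shared probe set.

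**Figure D4:**
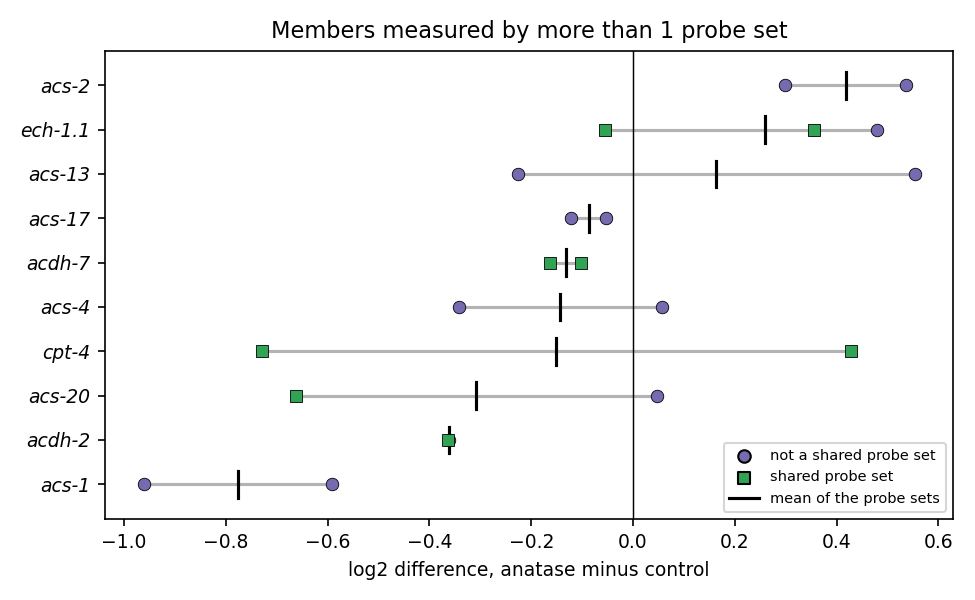
Log2 difference (exposed minus control) of every probe set of the 10 members with more than 1, with the mean as a black bar; squares are shared probe sets, whose types may also bind transcripts of related genes. Both probe sets of acs-1 lie below 0 and both of acs-2 above 0, and those of cpt-4, acs-13 and acs-20 lie on both sides.

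Other genes around the pathway were, as groups, also close to equal. Of 10 lipase and lipid droplet genes compared, of 11 listed, that free fatty acids, 5 lay higher and 5 lower, with a median of −0.09 that was 0.03 with the brightest probe set. lipl-2 was at 0.56 and lipl-6, at 41.6 and 6.4, at −1.36. Of 9 regulators of fatty acid oxidation genes 6 were lower, with a median of −0.04 that was 0.02 with median centring. The nuclear receptor nhr-49 itself was at −0.04, and the largest values were those of its Mediator partner mdt-15 (−0.33) and of nhr-13 (−0.29). The other genes listed as peroxisome proteins, 19 of import, transport and metabolism, had a median of −0.05 with 11 lower. These 19 include dhs-28, already described above. Their median was 0.0064 with median centring and −0.15 over the 11 genes left without shared probe sets. Among the 19 the assembly factor prx-2 was at 0.67, the only one past 1.5-fold, and pmp-3 at −0.36. A further 17 genes of other oxidation steps and electron transfer had a median of 0.02 with 6 lower, and F54C8.1 (0.53) and T02G5.7 (0.27) had the largest values. hadb-1, the partner of ech-1.2 in the trifunctional protein, was at −0.25, and both of its probe sets were lower.

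Markers of the tissues in a whole worm were not even between the arrays. No measured marker was near 0, and the dimmest was the muscle gene hlh-1, at 46.4 and 26.6. Of 10 intestinal markers measured, of 11 listed, 8 were lower, with a median of −0.33 (−0.47 over the 4 left without shared probe sets), and their intensities summed to 42150 without anatase and 36449 with it. Among them elt-2, the factor that maintains intestinal identity, was at −0.60 and the peptide transporter pept-1 at −0.90, the metallothionein mtl-2 was at −2.65, and ges-1 and ifb-2 were the 2 higher ones, at 0.16 and 0.12. Of 8 epidermal markers 7 were lower, with a median of −0.11 (−0.27 over the 6 left without shared probe sets) and summed intensities of 27210 and 26050. Of 8 sperm markers measured, of 10 listed, 8 were higher, with a median of 0.26 (0.20 over the 3 left without shared probe sets) and sums of 4438 and 5423. Body muscle (7 markers, median 0.00, sums 19281 and 19762), neurons (8 markers, median 0.05, sums 5407 and 5293) and germline (8 markers, median −0.04, sums 12949 and 12883) lay close to equal. Each of these 3 medians changed sign in at least 1 alternative. Without shared probe sets they were −0.16 over 4 muscle markers, −0.19 over 5 neuron markers and −0.08 over 6 germline markers. Fewer cells of a type and less RNA per cell cannot be told apart in whole worms. The part of these shifts in the lower peroxisomal values and in acs-1 was not tested.

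**Figure D5:**
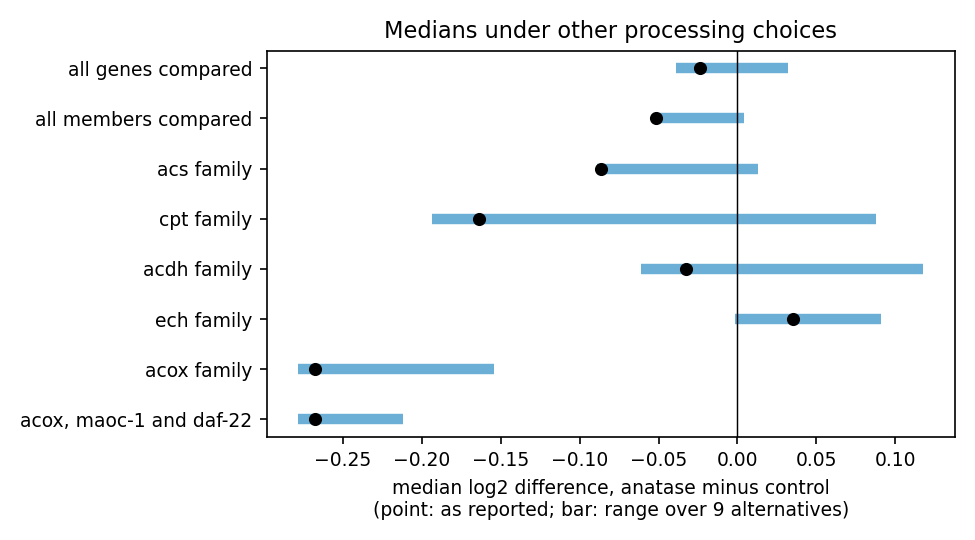
Median log2 difference of each family and of all genes as reported (points), with its range over 9 other processing choices (bars). The acox bar stays below 0, from −0.28 to −0.15 (the latter over 2 genes), and those of the acs, cpt, acdh and ech families reach both sides of 0.

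Among the families, the acox median kept its sign. Over 9 alternatives it ran from −0.28 to −0.15, the latter over the 2 genes left without shared probe sets. The median of acox, maoc-1 and daf-22 together ran from −0.28 to −0.21. Leaving out or raising the filter and taking the brightest probe set could not change either median. Each of these genes has 1 probe set and passed the raised filter. The medians of the other families changed sign in at least 1 alternative each, and ran from −0.09 to 0.01 for acs, from −0.19 to 0.09 for cpt, from −0.06 to 0.12 for acdh and from −0.0013 to 0.09 for ech. cpt-3, acdh-6, acs-1 and acs-7 kept their direction in each alternative that gave a value, as did maoc-1, acox-3 and acs-2.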

How the data were processed

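Biotin-labelled cRNA was hybridised to Affymetrix arrays, per the labels' protocols. The authors deposited a linear intensity for every probe set of both arrays. Transcriptome Analysis Console is named in the submitters' processing notes, and no summary or scaling method is stated there. In all, 22548 probe sets had values and no detection calls, and 20766 of them name 1 gene (887 name several and 895 none). Gene values used only the probe sets that name 1 gene. The filter percentiles, the array summaries and the alternative scalings took all probe sets. The probe set naming acox-1.3 and acox-1.4 and that naming kat-1 and T02G5.4 are given apart from the gene values. All 58 members matched RefSeq by gene number. Gene order for neighbouring members was read from the RefSeq table of assembly WBcel235, and no positions are given because no genome build is stated for the array. Sequences were not used.

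Values were taken as log2(intensity + 16), a scale on which dim genes show smaller folds, and averaged per gene. A gene was compared if its level on the brighter array was at or above the lower quartile (percentile 25) of that array's probe sets; all members were. The genes compared were cut into 4 equal groups by mean log2 value. Each group has 1 array, which limits the precision; both are labelled replicate 3. No test was made, and counts took 1.5-fold and 2-fold. The steps were tested on simulated data.

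The members, the lists of lipases, regulators, peroxisome proteins, other oxidation steps and tissue markers, and the rule for named genes were chosen with earlier results of these data known. Named were members past 1.5-fold, the brightest of each family, those with probe sets at least 0.5 log2 units apart, 17 fixed symbols and the 2 largest differences of each pathway list; other members named were chosen after their values were seen. Alternatives were pseudocounts of 1 and 64, median centring, loess with a span of 30%, quantile normalization, leaving out the filter or raising it to the median, the brightest probe set, no shared probe sets (names ending in _a_at, _s_at or _x_at), and a 3-fold threshold. The work used pandas 2.3.3 and numpy 2.4.6 under Python 3.11.15, statsmodels 0.14.6 for loess, scipy 1.17.1, and matplotlib 3.10.9.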

Additional observations from a re-analysis of the deposited data

How the results depend on the processing

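No paired analysis was possible because only 1 array stands in each group. The group of acox, maoc-1 and daf-22 was chosen after seeing the data. Without shared probe sets only 3 of its 7 genes were measured, and all 3 were lower; 6 of 7 were lower with median centring and 7 in the other alternatives. The median of all members was 0.0042 with median centring and −0.0013 without shared probe sets. The acs median was 0.013 with the brightest probe set. Without shared probe sets the acdh median was 0.12 over 4 genes and the cpt median 0.088 over 3. Members at least 1.5-fold higher numbered 2 with a pseudocount of 1 and 1 with loess or quantile normalization, and 1 member was at least 2-fold lower with a pseudocount of 1. Of 58 members 51 kept their sign throughout. The 7 others were acdh-3, acox-1.2, acs-4, acs-20, cpt-4, ech-1.1 and ech-5. For all genes, 638 were at least 1.5-fold higher and 1303 lower; these became 163 and 403 with a pseudocount of 64 and 187 and 322 with the filter at the median, and 963 were higher with no filter. At 2-fold, 226 were higher and 418 lower; these became 423 and 803 when the pseudocount was 1, 12 and 24 when it was 64, 25 and 54 with the filter at the median, and 23 and 76 at 3-fold. The cause of these changes was not tested. Dim signal limits acdh-2, acs-23, acs-24, acs-25, cpt-4 and ech-1.1, which lie in the dimmest of the 4 brightness groups.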
